A study of Mus musculus with 4 samples.

Results

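The transmembrane mucins of the colonic epithelium were followed as 4 genes, Muc1, Muc3, Muc4 and Muc13, chosen by their symbols in the deposited gene table of 30360 genes. All 4 were present, each as a single entry. They were described across the 7 epithelial classes that the authors annotated and across 4 libraries of single-cell RNA from colonoids, which are colonic organoids grown in a gel from mouse distal colon.

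Transmembrane mucins are anchored in the apical membrane and carry a long, heavily O-glycosylated extracellular part, which forms the glycocalyx next to the cell, beneath the gel of secreted Muc2. Their short cytoplasmic tails can pass signals into the cell. In the colon they are found on absorptive cells and on goblet cells. Muc3 is known as a mucin of the brush border, the layer of microvilli on absorptive cells. Muc13 is known as a mucin of the apical surface of both absorptive and goblet cells, Muc4 as a partner of the receptor ErbB2, and Muc1 as a mucin of many simple epithelia.

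The donors were wildtype (WT) mice and Tnfr2-/- mice, in which Tnfrsf1b, the gene of TNF receptor 2, is knocked out. Mice were 16 weeks old per the labels. Cultures of each genotype went untreated (their treatment label reads vehicle) or were given tumor necrosis factor (TNF, 20 ng/ml), which started 1 day after passage 5 and ended on day 6. All were harvested on day 7, and apoptotic cells were removed before 3′ libraries were made. The labels do not give the number of mice behind a culture. Each of the 4 groups (WT untreated, WT TNF, Tnfr2-/- untreated, Tnfr2-/- TNF) had 1 library, so no test between groups was possible and no p-value is given. Where 4 values follow each other, they are in that order. The question addressed was how the loss of the receptor and the exposure to TNF went with the levels of these mucins.

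The libraries held 2589, 1469, 1117 and 980 cells, of which 1128, 1163, 1023 and 858 were epithelial, with 39776200 to 50648198 epithelial UMIs (unique molecular identifiers, each counting 1 captured RNA molecule) a library. Summed over 7 epithelial markers such as Epcam and Krt8, epithelial cells held 11459 to 15067 CPM (UMIs of a gene scaled to a total of 1e6 UMIs in the same cells) and mesenchymal cells 135 to 854 CPM. Summed over 9 mesenchymal markers such as Col1a1, epithelial cells as a whole held 6.14 to 27.1 CPM and mesenchymal cells 10261 to 19518 CPM. Among the epithelial classes, Secretory-Reg4-Ang4 of WT TNF held 1124 CPM of these markers and Enteroendocrine cells 264, 70.1, 135 and 16.4 CPM. Of the 9 markers, 8, 4, 1 and 2 were above 0 in these Enteroendocrine cells, and the 135 CPM of Tnfr2-/- untreated was Vim alone. Of 6152 distinct cell barcodes, 3 occurred in more than 1 library. The targeted gene was not absent from the Tnfr2-/- libraries, since Tnfrsf1b had 210, 501, 92 and 274 epithelial UMIs, and a 3′ count does not show whether an upstream part of the gene was deleted. Xist, the RNA of the inactive X chromosome, stood at 558, 683, 0.158 and 0.101 CPM. Donor sex, or whatever else set its level, thus moved with genotype and cannot be told apart from it. Genes of chromosome 19 also had median log2 differences between Tnfr2-/- and WT of 0.53 without TNF and 0.34 with it. For chromosome 2 these were 0.33 and 0.12, and both chromosomes lay above every other autosome. The cause was not tested and cannot be told apart from genotype.

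The genes lie on 3 chromosomes of GRCm38 (GENCODE M21). Muc1 (ENSMUSG00000042784) lies at chr3:89229057-89233381 on the plus strand and Muc3 (ENSMUSG00000037390) at chr5:137134922-137149322 on the minus strand. Muc4 (ENSMUSG00000079620, chr16:32735886-32782391) and Muc13 (ENSMUSG00000022824, chr16:33794037-33819934) are both on the plus strand of chromosome 16. Muc4 overlaps Muc20 on the opposite strand, which had 7 epithelial UMIs in all libraries together. Muc13 overlaps the antisense gene Gm15657, which had 195. The sources used here do not say whether strand was used in counting. The neighbouring Muc3a (ENSMUSG00000094840, chr5:137208813-137212389) shared 0% of the 31-base words of the Muc3 transcript, and its own levels were 1.95, 4.86, 0.77 and 0.201 CPM.

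The 250 bases upstream of each RefSeq start are shown, where a promoter for that start would lie. They are RefSeq sequences on GRCm38.p6, read 5′ to 3′ on the strand of the gene, with matches on either strand to 6 textbook motifs in capitals. The windows are chr3:89228806-89229055 (plus strand), chr5:137166047-137166296 (minus strand), chr16:32735636-32735885 (plus strand) and chr16:33793787-33794036 (plus strand, the first of 2 RefSeq starts). The RefSeq start of Muc3 lies well upstream of the counted GENCODE gene, whose 5′ end is at chr5:137149322. Whether that window holds the promoter of the counted gene was not tested.
Muc1: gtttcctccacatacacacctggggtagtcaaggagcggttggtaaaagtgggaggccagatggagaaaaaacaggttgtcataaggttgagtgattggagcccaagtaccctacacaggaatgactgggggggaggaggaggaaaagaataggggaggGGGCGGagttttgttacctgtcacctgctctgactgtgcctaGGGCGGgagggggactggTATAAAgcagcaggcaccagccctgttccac
Muc3: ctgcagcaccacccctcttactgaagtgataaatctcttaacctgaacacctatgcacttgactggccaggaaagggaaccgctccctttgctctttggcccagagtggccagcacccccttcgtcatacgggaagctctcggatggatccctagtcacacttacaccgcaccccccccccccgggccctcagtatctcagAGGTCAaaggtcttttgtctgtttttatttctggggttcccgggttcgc
Muc4: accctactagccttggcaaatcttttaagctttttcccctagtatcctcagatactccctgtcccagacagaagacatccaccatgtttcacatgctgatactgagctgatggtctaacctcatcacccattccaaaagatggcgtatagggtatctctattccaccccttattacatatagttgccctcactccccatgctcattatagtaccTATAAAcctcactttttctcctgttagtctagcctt
Muc13: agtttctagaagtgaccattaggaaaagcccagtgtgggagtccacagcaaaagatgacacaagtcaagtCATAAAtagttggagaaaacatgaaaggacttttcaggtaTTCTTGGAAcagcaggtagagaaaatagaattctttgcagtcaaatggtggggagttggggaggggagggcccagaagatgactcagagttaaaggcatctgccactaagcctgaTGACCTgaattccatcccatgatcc

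The motifs searched were the TATA box (TATAAA), the GC box of Sp1 and related factors (GGGCGG), the half-site of nuclear receptors (AGGTCA), the core of CDX sites (TTTATG), the STAT palindrome (TTCNNNGAA) and the NF-kB motif by its consensus. They were chosen after the sequences had been read. Muc1 held 1 TATA box at position -31 to -26 relative to the start and 2 GC boxes. Muc4 held 1 TATA box at -36 to -31 and none of the other motifs. Muc3 held 1 nuclear receptor half-site at -49 to -44, and Muc13 held 1 such half-site at -25 to -20, 1 CDX core at -180 to -175 and 1 STAT palindrome at -140 to -132. No overlap between motifs occurred in these windows. Of 32851 upstream windows of the same length, 12.4% held the TATA box, 32.7% the GC box, 14% the half-site, 10.8% the CDX core, 7.02% the STAT palindrome and 7.25% the NF-kB motif, which none of the 4 windows held. A match describes letters in a window and shows no binding.

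In the sum over all epithelial cells, Muc3 was the member with the largest differences between the genotypes. With every cell weighted equally this did not hold with TNF, where Muc4 stood at -1.53 and Muc3 at -1.36 on the log2 scale used below. Over all epithelial cells the level of Muc3 was 451 CPM (95% counting interval 445 to 456) in WT untreated, 213 CPM (208 to 217) in WT TNF, 42.7 CPM (40.9 to 44.5) in Tnfr2-/- untreated and 55.0 CPM (52.7 to 57.3) in Tnfr2-/- TNF. Both WT libraries lay above both Tnfr2-/- libraries. These intervals hold counting error alone and say nothing of how cultures or mice vary. On the log2(CPM + 1) scale, which is used for all differences, Muc3 differed by -3.37 between Tnfr2-/- and WT without TNF, a ratio of 0.0947 (0.0906 to 0.099). With TNF the difference was -1.93, a ratio of 0.258 (0.246 to 0.271). The interval of the Muc4 ratio in the same pair, given below, spans that whole range. The same 4 libraries enter the TNF comparison, so it is not independent of the genotype comparison: TNF minus untreated was -1.08 in WT and 0.36 in Tnfr2-/-.

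A sum over all epithelial cells cannot tell fewer cells of a high class from less RNA per cell, and the make-up of the libraries differed. Absorptive cells numbered 319, 19, 11 and 1, and Progenitor.2 cells 62, 273, 233 and 716. In WT untreated, 66.1% of the Muc3 UMIs came from the absorptive class, which held 31.9% of all epithelial UMIs. In WT TNF, 63.0% of them came from Progenitor.2. In Tnfr2-/- untreated, 42.1% came from Progenitor.1 and 39.6% from Progenitor.2, and in Tnfr2-/- TNF 97.1% came from Progenitor.2.

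**Figure D1:**
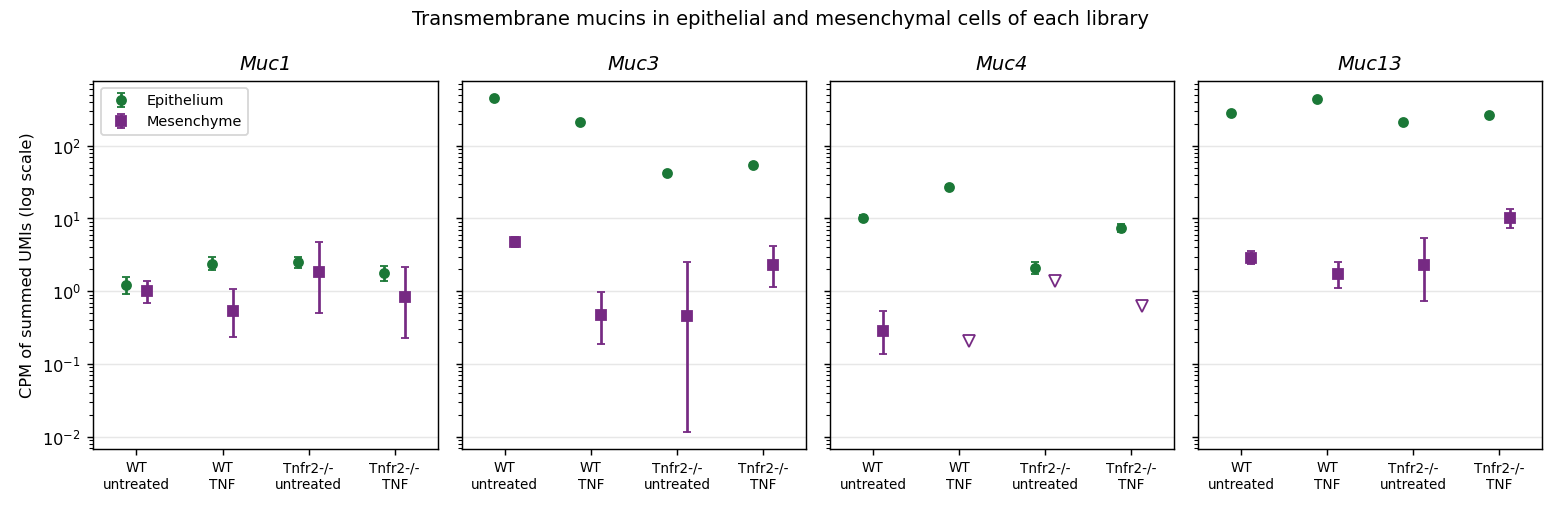
CPM of summed UMIs (log axis) of each member in epithelial cells (green circles) and mesenchymal cells (purple squares) of the 4 libraries. Bars are exact 95% Poisson intervals for counting error, 1 library a group, and open triangles mark 3 counts where none was seen. Muc3 falls from 451 to 42.7 CPM between the untreated genotypes, and Muc1 overlaps its mesenchymal level in 3 of the 4 libraries.

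Within classes the order of the Muc3 levels was the same in both WT libraries for the leading classes. In WT untreated the absorptive class stood at 934 CPM (919 to 949), Progenitor.2 at 619 (582 to 658), Progenitor.1 at 226 (221 to 232), Progenitor.3 at 190 (168 to 214), Secretory-Reg4-Spdef-Lyz1 at 35.6 (29.0 to 43.2) and Enteroendocrine at 19.8 CPM (10.6 to 33.9). The intervals of neighbours in this order overlapped for the last pair alone. A single cell held 104 of the 279 UMIs of Progenitor.3, 72 of the 101 of Secretory-Reg4-Spdef-Lyz1 and 12 of the 13 of Enteroendocrine, and without that cell these classes stood at 132, 10.6 and 1.61 CPM. In WT TNF, absorptive cells stood at 781 CPM (724 to 843), Progenitor.2 at 437 (426 to 449) and Progenitor.1 at 115 (110 to 120). In Tnfr2-/- untreated, Progenitor.2 was highest among classes of at least 15 cells, at 86.5 CPM (80.8 to 92.5), followed by Progenitor.1 at 24.8 (23.2 to 26.4), while the 21.9 CPM of Enteroendocrine came from 1 of its 18 cells, which held all 12 UMIs. In Tnfr2-/- TNF, Progenitor.2 stood at 62.9 CPM (60.3 to 65.6) and Progenitor.1 at 8.19 (5.90 to 11.1). The classes were clustered on all genes, and Muc3 is among the marker genes the authors gave for the absorptive class, so an order of classes is a description.

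Muc3 was lower in Tnfr2-/- also within classes. In Progenitor.1 the difference was -3.14 without TNF and -3.66 with it. In Progenitor.2 it was -2.82 and -2.78. It was -4.84 in Progenitor.3 and -3.22 in Secretory-Reg4-Spdef-Lyz1 in the untreated pair, on 3 and 7 UMIs in the Tnfr2-/- library, in each case from 1 cell. In Enteroendocrine cells no difference is read, since 1 cell held 12 of 13 UMIs in WT untreated and 1 cell all 12 in Tnfr2-/- untreated, and with TNF the counts were 5 and 0 UMIs. Without the cell of most UMIs in each library, the Progenitor.1 differences were -3.23 and -4.12 and the Progenitor.2 differences -2.74 and -2.81. The absorptive class had too few Tnfr2-/- cells for a comparison: its 11 untreated cells held 373 UMIs, or 691 CPM (623 to 765), and its 1 cell with TNF held 18 UMIs.

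With TNF, Muc3 was lower within both large progenitor classes of both genotypes, although the sum over the Tnfr2-/- epithelium was higher. The difference in Progenitor.1 was -0.97 in WT and -1.49 in Tnfr2-/-, and in Progenitor.2 it was -0.50 and -0.45. WT absorptive cells differed by -0.26 and WT Progenitor.3 cells by -3.79, on 22 and 279 UMIs. Secretory-Reg4-Spdef-Lyz1 cells went the other way, from 35.6 to 68.2 CPM in WT, a difference of 0.92 with a ratio of 1.92 (1.54 to 2.40). The size of this difference rests on single cells: without the 1 cell that held 72 of 101 UMIs in WT untreated and the 1 that held 56 of 440 in WT TNF, the ratio was 5.78 (3.96 to 8.74). Progenitor.2 held 19.6% of the epithelial UMIs in Tnfr2-/- untreated and 84.8% in Tnfr2-/- TNF. With Progenitor.1, Progenitor.2 and Enteroendocrine, the 3 classes that all libraries shared, weighted equally, the difference in Tnfr2-/- was -0.88 in place of 0.36, and -0.62 without the top cell of each class and library.

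**Figure D2:**
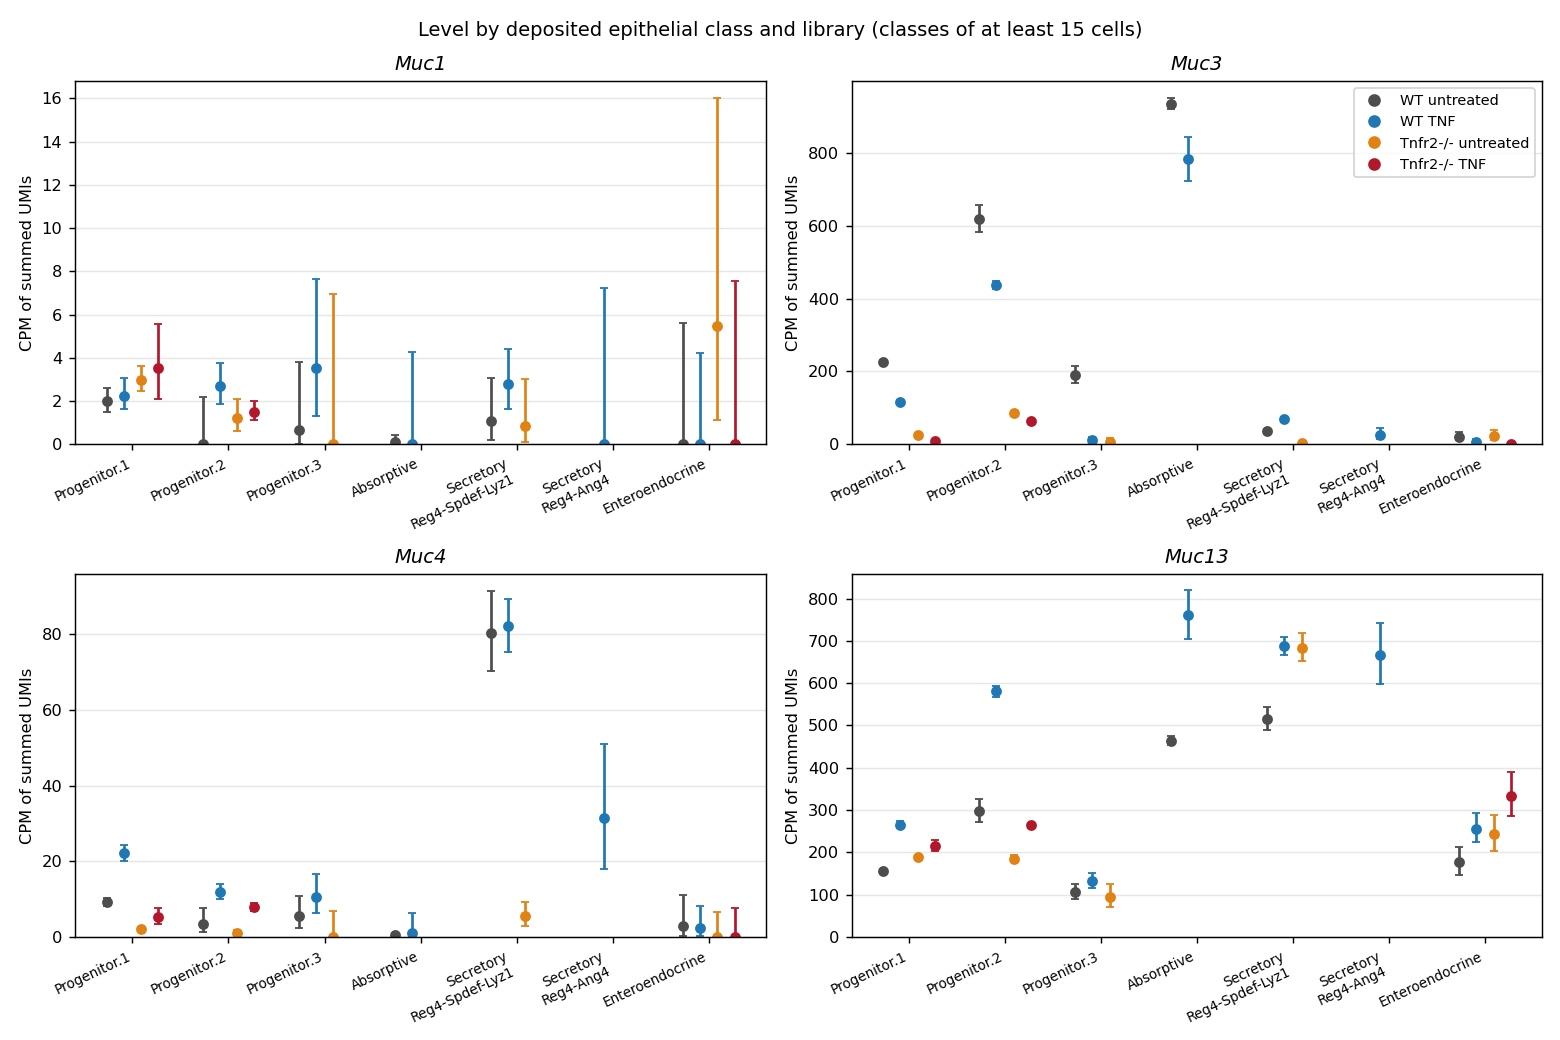
CPM of each member (vertical axis, a scale of its own in each panel) in the epithelial classes of each library, with exact 95% Poisson intervals, for classes of at least 15 cells. Muc3 is highest in WT absorptive cells (934 and 781 CPM), Muc4 in WT Secretory-Reg4-Spdef-Lyz1 cells (80.3 and 82.1 CPM), and Muc13 lies above 90 CPM in every class shown.

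Cells with at least 1 UMI of Muc3 were also fewer in Tnfr2-/- at equal depth. Each cell was reduced to a random 5000 of its UMIs, and 43, 290, 33 and 12 shallower epithelial cells were dropped, among them 244 of the 246 Secretory-Reg4-Ang4 cells of WT TNF. The share was then 53.3%, 35.6%, 10.4% and 12.6% of epithelial cells. The shares in mesenchymal cells, which should lack the gene, were 0.988% in WT untreated and 0 of 298, 86 and 120 cells in the others, which allows up to 1.01%, 3.49% and 2.5%. The median depths before thinning were 37245.5, 30306, 41057 and 37368.5 UMIs in the epithelium and 22642.5, 48633, 24549 and 37644.5 in mesenchyme. Among WT untreated absorptive cells 95.9% (93.1 to 97.8, exact binomial) held a UMI. Progenitor.1 had shares of 41.6%, 29.6%, 7.61% and 2.13%, and Progenitor.2 had 64.3%, 66.3%, 19.6% and 14.6%. Without thinning the epithelial shares were 66.4%, 45.1%, 27.5% and 29.0%.

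Muc3 differed between single cells of a class. In WT untreated absorptive cells the 10th percentile was 323 CPM, the median 858 CPM and the 90th percentile 1500 CPM. In WT untreated Progenitor.2 cells the median was 765 CPM and in Tnfr2-/- untreated Progenitor.2 cells 0, where the 90th percentile was 347 CPM. The higher quantile was thus also lower in Tnfr2-/-, against 2674 CPM in WT untreated Progenitor.2.

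Over the whole epithelium, markers of absorptive cells had the same order of libraries as Muc3. Summed over 7 markers (Car1, Car4, Slc26a3, Aqp8, Krt20, Slc37a2 and Guca2a), the epithelium held 4170, 887, 376 and 529 CPM. Within Progenitor.1 the sum was 422, 55.8, 123 and 62.6 CPM, with Car4 at 0 in the last 3 libraries and Aqp8 at 0 in both Tnfr2-/- libraries. Its order differed there from that of Muc3, which was higher in WT TNF than in Tnfr2-/- untreated. Within Progenitor.2 it was 3412, 1925, 734 and 581 CPM, with none at 0. The part of absorptive differentiation in the Muc3 differences was not tested.

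**Figure D3:**
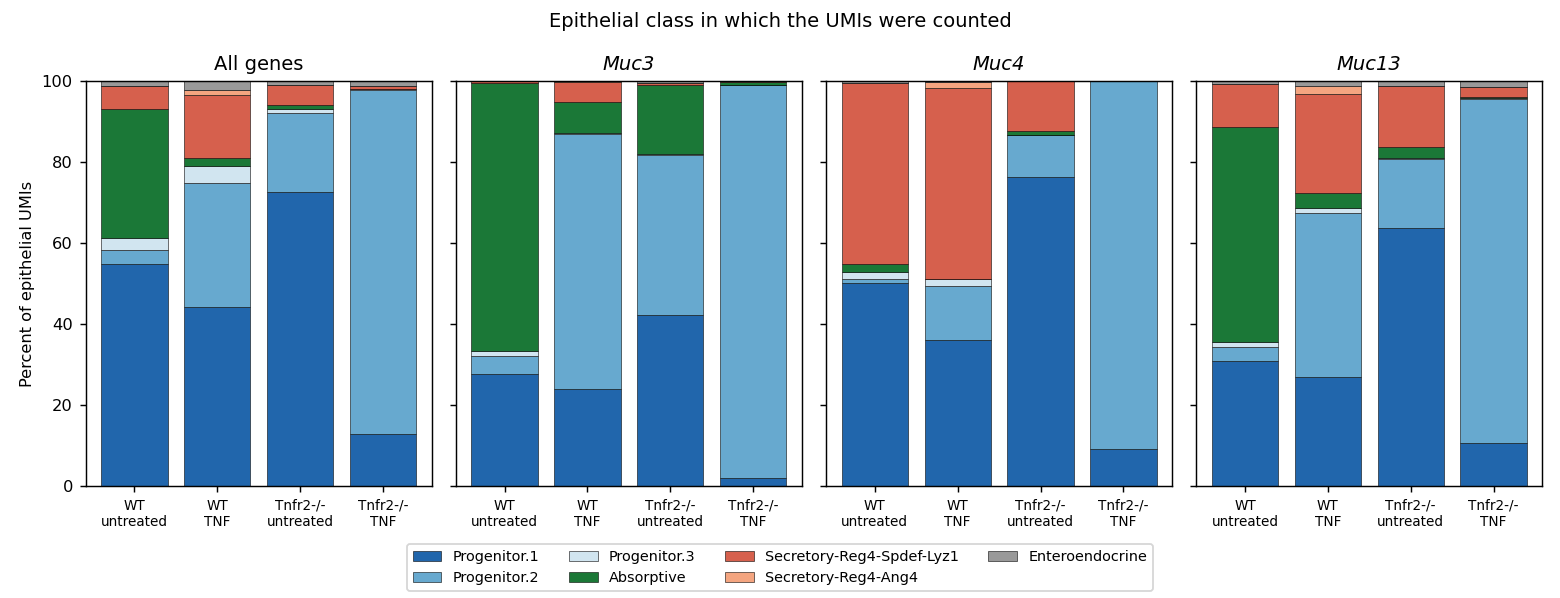
Percent of epithelial UMIs (vertical axis) counted in each class, for all genes and for Muc3, Muc4 and Muc13, by library. The absorptive class gave 66.1% of the Muc3 UMIs of WT untreated and 0.823% of those of Tnfr2-/- TNF, where Progenitor.2 gave 97.1%.

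Muc13 was found in every epithelial class and differed less between libraries. Over all epithelial cells it stood at 278 CPM (273 to 282), 438 CPM (431 to 444), 215 CPM (211 to 219) and 264 CPM (259 to 269). WT TNF was the highest library and Tnfr2-/- untreated the lowest. The genotype difference was -0.37 without TNF, a ratio of 0.774 (0.755 to 0.794), and -0.73 with TNF, a ratio of 0.602 (0.588 to 0.617). TNF minus untreated was 0.65 in WT and 0.29 in Tnfr2-/-.

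Muc13 was higher with TNF within every class that could be compared. The differences were 0.77 and 0.19 in Progenitor.1 (WT, then Tnfr2-/-), 0.96 and 0.51 in Progenitor.2 and 0.52 and 0.46 in Enteroendocrine cells. In WT they were also 0.32 in Progenitor.3, 0.71 in absorptive cells and 0.41 in Secretory-Reg4-Spdef-Lyz1 cells. All 9 ratios had intervals above 1, the nearest being 1.25 (1.01 to 1.54) in Progenitor.3. Without the cell of most UMIs in each library, 8 of the 9 did, and the ratio in Tnfr2-/- Enteroendocrine cells was 1.23 (0.942 to 1.60). Nfkbia, a target of NF-kB that TNF is known to raise, had epithelial levels of 313, 567, 290 and 575 CPM and was chosen after its values were seen.

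The genotype difference of Muc13 did not have 1 sign across classes. In Progenitor.1 it was 0.28 without TNF and -0.30 with it. In Progenitor.2 it was -0.68 and -1.13. In Secretory-Reg4-Spdef-Lyz1 cells, compared without TNF alone, it was 0.41, and in Enteroendocrine cells it was 0.44 and 0.38, the latter with a ratio of 1.23 (0.978 to 1.55) without the top cells. The lower sum over the Tnfr2-/- epithelium thus stood beside higher levels in the secretory classes compared. With the 3 shared classes weighted equally the difference was -0.035 without TNF and -0.44 with it.

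The order of Muc13 levels in WT untreated was Secretory-Reg4-Spdef-Lyz1 at 516 CPM (490 to 544), absorptive at 463 (453 to 474), Progenitor.2 at 298 (273 to 326), Enteroendocrine at 178 (148 to 214), Progenitor.1 at 156 (151 to 160) and Progenitor.3 at 106 CPM (90.3 to 124). Enteroendocrine and Progenitor.1 overlapped. In WT TNF, absorptive cells at 761 CPM, Secretory-Reg4-Spdef-Lyz1 at 688 and Secretory-Reg4-Ang4 at 667 followed each other with overlapping intervals. The mesenchymal markers of the Secretory-Reg4-Ang4 and Enteroendocrine cells are given above, and their part in these levels was not tested. In Tnfr2-/- untreated, Secretory-Reg4-Spdef-Lyz1 stood at 684 CPM (651 to 718) and Enteroendocrine next at 243 (203 to 288). In Tnfr2-/- TNF, Enteroendocrine at 334 CPM (285 to 390) was above Progenitor.2 at 264 and Progenitor.1 at 216. Single cells held 26 of 133 and 32 of 163 of these Enteroendocrine UMIs. Without the top cell of each class, Enteroendocrine stood at 228 CPM (187 to 275) untreated, overlapping Progenitor.1 (183 to 192). With TNF it then stood at 279 CPM (233 to 331), overlapping Progenitor.2 (257 to 268). The median cells of Enteroendocrine, Progenitor.2 and Progenitor.1 with TNF held 107, 151 and 189 CPM, the reverse order.

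At 5000 UMIs a cell, 64.5%, 71.7%, 54.5% and 51.4% of epithelial cells held a UMI of Muc13, against 1.06%, 0.671%, 1.16% and 5.00% of mesenchymal cells. Between the Tnfr2-/- libraries the share and the CPM went opposite ways, so no order is read from the share there. Secretory-Reg4-Spdef-Lyz1 had the highest shares among classes of at least 15 cells in WT untreated and Tnfr2-/- untreated, at 93.1% and 96.8%, and 92.5% in WT TNF, where the 19 absorptive cells had 94.7%. Muc3 and Muc13 were seen in the same cell in 42.2%, 32.4%, 8.48% and 11.3% of epithelial cells. In WT untreated absorptive cells both were seen in 84.9% and neither in 1.26%, whereas in Secretory-Reg4-Spdef-Lyz1 cells of the same library Muc13 alone was seen in 90.3%.

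**Figure D4:**
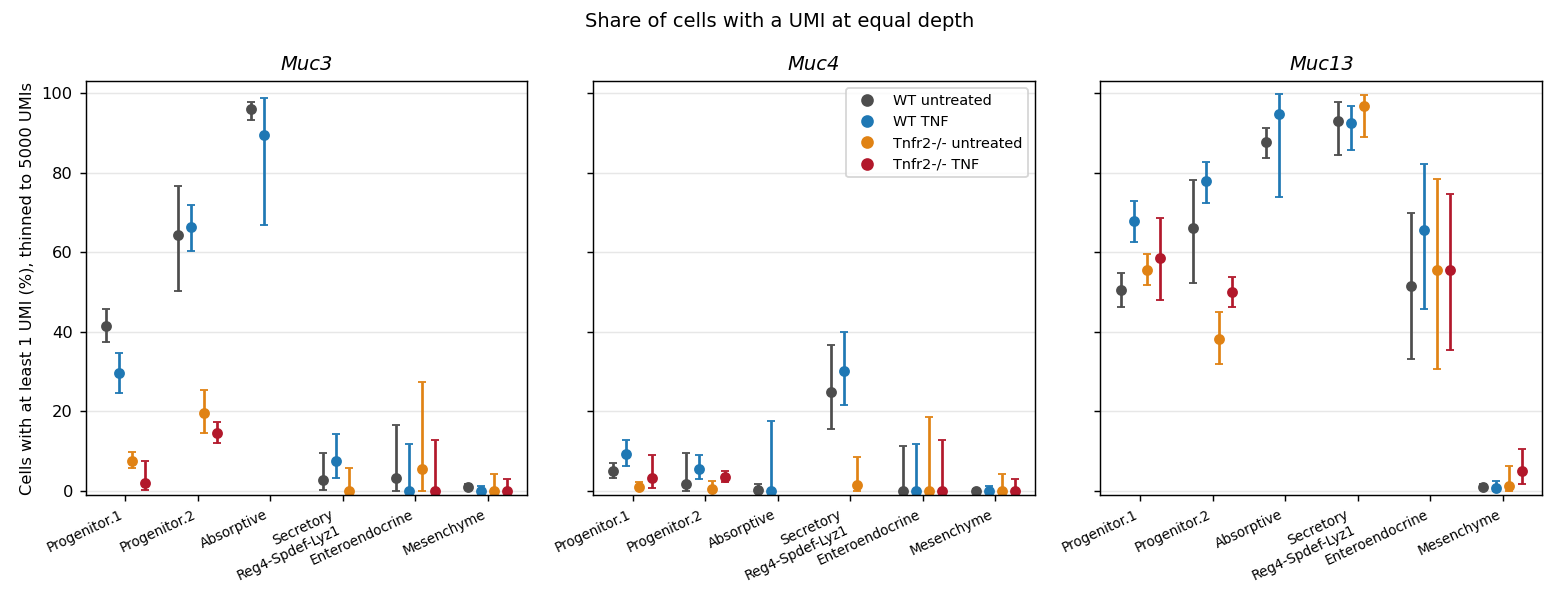
Percent of cells with at least 1 UMI of Muc3, Muc4 or Muc13 after thinning to 5000 UMIs (vertical axis) by class and library, with exact 95% binomial intervals, for classes of at least 15 cells. Mesenchymal cells stay at or below 5.00% for all 3 genes, while 95.9% of WT untreated absorptive cells held Muc3.

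Muc4 was low over the epithelium and, in the 3 libraries with at least 15 such cells, highest in Secretory-Reg4-Spdef-Lyz1 cells. Over all epithelial cells it stood at 10.1 CPM (9.23 to 11.0), 27.1 CPM (25.6 to 28.8), 2.09 CPM (1.71 to 2.53) and 7.39 CPM (6.57 to 8.29), on 508, 1122, 106 and 294 UMIs. Within each treatment WT lay above Tnfr2-/-, and within each genotype TNF lay above untreated. The genotype difference was -1.84 without TNF, a ratio of 0.207 (0.167 to 0.256), and -1.75 with it, a ratio of 0.272 (0.239 to 0.310). TNF minus untreated was 1.34 in WT, a ratio of 2.69 (2.42 to 2.99), and 1.44 in Tnfr2-/-, a ratio of 3.53 (2.82 to 4.45). In mesenchymal cells there were 10 UMIs in WT untreated and 0 in the other libraries, where 3 counts would be 0.204, 1.38 and 0.629 CPM.

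Secretory-Reg4-Spdef-Lyz1 cells held 80.3 CPM of Muc4 (70.2 to 91.4) in WT untreated, 82.1 CPM (75.3 to 89.4) in WT TNF and 5.44 CPM (2.90 to 9.30) in Tnfr2-/- untreated. The genotype difference there was -3.66, a ratio of 0.0677 (0.0355 to 0.118), from 13 UMIs against 228. The sum of 9 goblet and deep secretory markers in the class was 39407, 37132 and 41447 CPM in these 3 libraries, but Muc2, which is among them, was also lower in Tnfr2-/-: it stood at 1979, 2300 and 554 CPM, a ratio of 0.280 (0.263 to 0.297) between the untreated genotypes. The 8 cells of the class in Tnfr2-/- TNF held 0 UMIs of Muc4. TNF minus untreated in the WT class was 0.032, a ratio of 1.02 (0.874 to 1.20).

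In Progenitor.1, Muc4 stood at 9.19, 22.1, 2.21 and 5.27 CPM. The genotype differences were -1.67 and -1.88, and the TNF differences 1.18 in WT and 0.97 in Tnfr2-/-. In Progenitor.2 it stood at 3.57, 11.9, 1.11 and 7.91 CPM, on 6, 151, 11 and 267 UMIs. The TNF differences there were 1.50 and 2.08, and the genotype difference was -0.53 with TNF, a ratio of 0.665 (0.542 to 0.817). Without TNF the ratio of 0.311 had an interval of 0.105 to 1.02. A single cell held 5 of the 6 UMIs of WT untreated, and without the top cell of each library the TNF differences were 2.89 and 2.33 and that ratio 1.19 (0.153 to 53.5). The goblet and deep secretory markers moved with TNF in Progenitor.2, where they summed to 61.3, 1009, 128 and 2188 CPM, and less so in Progenitor.1, where they summed to 1157, 1291, 858 and 1435 CPM. Their part in the Muc4 differences was not tested.

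WT untreated absorptive cells held 10 UMIs of Muc4, or 0.623 CPM (0.299 to 1.15), the lowest level of a class in that library, although its interval overlapped that of Enteroendocrine cells (0.369 to 11.0). A single cell held 5 of the 6 UMIs of Progenitor.2 there, and another 6 of the 8 of Progenitor.3. Without these cells the 2 classes stood at 0.601 CPM (0.0152 to 3.35) and 1.50 CPM (0.182 to 5.42), which also overlapped absorptive cells. The levels of Progenitor.1, Progenitor.3, Progenitor.2 and Enteroendocrine had overlapping intervals from neighbour to neighbour. At 5000 UMIs a cell, 4.42%, 9.74%, 0.909% and 3.31% of epithelial cells held Muc4, and 25% (15.5 to 36.6), 30.2% (21.6 to 39.9) and 1.61% (0.0408 to 8.66) of Secretory-Reg4-Spdef-Lyz1 cells in the first 3 libraries. The class gave 44.9%, 47.2% and 12.3% of the Muc4 UMIs there, and Progenitor.2 gave 90.8% of them in Tnfr2-/- TNF.

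**Figure D5:**
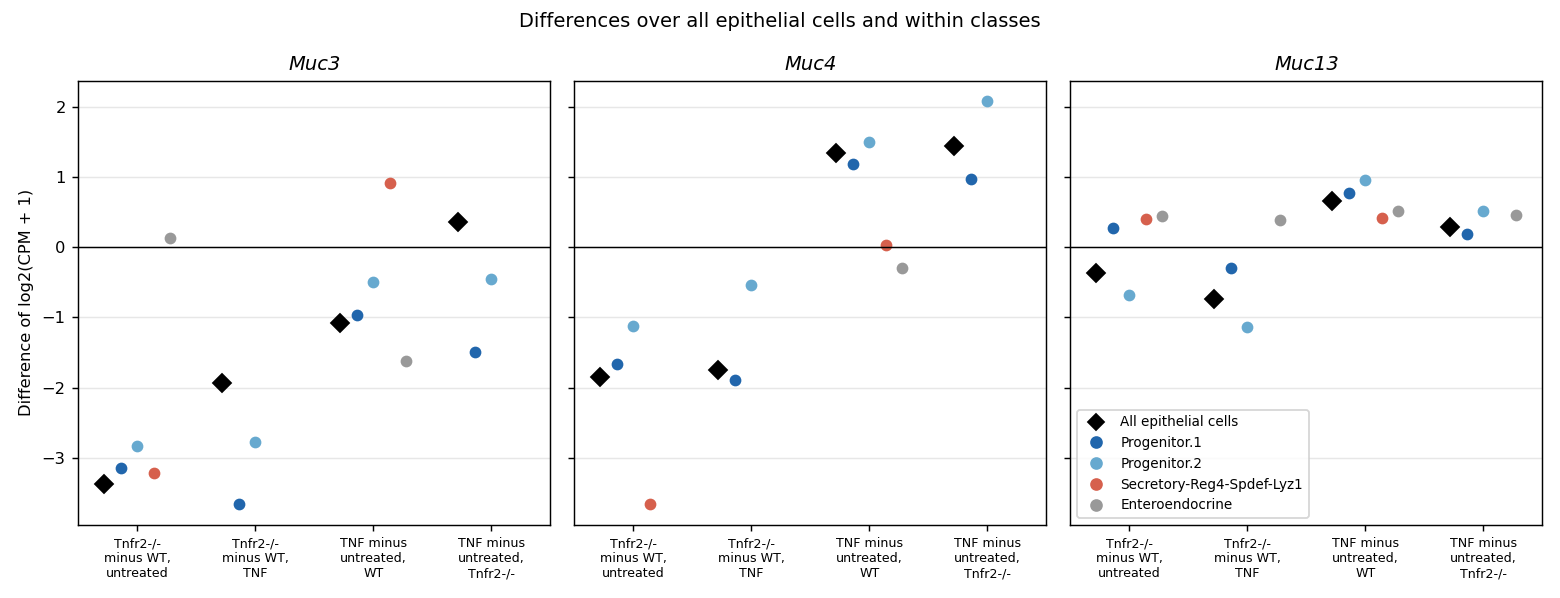
Difference of log2(CPM + 1) (vertical axis) over all epithelial cells (black diamonds) and within 4 classes (circles) for the 4 comparisons, each between 2 single libraries; points with 0 UMIs on either side are left out. Muc3 rises by 0.36 over the Tnfr2-/- epithelium with TNF while Progenitor.1 and Progenitor.2 lie at -1.49 and -0.45, and Muc13 lies above 0 with TNF in every class drawn.

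Muc1 was the lowest of the members in UMIs in all libraries other than Tnfr2-/- untreated. It had 61, 99, 127 and 70 epithelial UMIs, or 1.21, 2.39, 2.51 and 1.76 CPM, against 1.01, 0.544, 1.84 and 0.838 CPM in mesenchymal cells. Its counting intervals in epithelium and mesenchyme overlapped in each library other than WT TNF, where they were 1.95 to 2.91 and 0.235 to 1.07 CPM. Progenitor.1 gave 90.2%, 41.4%, 86.6% and 25.7% of its epithelial UMIs. At 5000 UMIs a cell, at most 1.49% of epithelial cells held a UMI in any library. The differences between libraries (0.67 and -0.30 for genotype, 0.62 and -0.35 for TNF) rest on these low counts.

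Genes were called at least 2-fold apart where they also reached 20 CPM in 1 library of the pair. Muc1 reached that level in none of the libraries and Muc4 in WT TNF alone, so 2 or 3 members could be called. Muc4 entered both pairs with WT TNF through that library, the higher of each pair, so its direction there was fixed by the minimum and is not read against the background. For genotype in both pairs, 1 of 2 members (Muc3) was called lower, against 1.41% of 5663 genes, and 0 were called higher, against 1.13%. For TNF in both pairs, 0 of 2 were called higher, against 0.92% of 5545 genes, and 0 lower, against 0.0721%. In single pairs, Muc3 was the 1 of 2 members lower in Tnfr2-/- without TNF (background 3.59%) and 0 were higher (2.42%). Muc3 was lower in Tnfr2-/- with TNF and Muc13 was not (6.37%), 0 were higher (5.04%), and Muc4 passed the fold. With TNF in WT, Muc3 was lower and Muc13 was not (1.08%), neither was higher (2.54%), and Muc4 passed the fold. With TNF in Tnfr2-/-, 0 of 2 were called higher (5.55%) or lower (7.81%). The median difference of all genes tested was 0.11 and -0.10 for genotype and 0.04 and -0.12 for TNF. In the untreated genotype pair 18 of 6021 genes had a lower difference than Muc3.

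Genes around these mucins were described from lists. Of 5 secreted mucins, 4 were in the gene table, where Muc19 had no entry. Muc2, the gel-forming mucin of goblet cells, was the 1 that could be called. It stood at 137, 415, 29.8 and 24.9 CPM and was called lower in Tnfr2-/- in both pairs, as were 1.41% of 5663 genes. Its differences were -2.16 and -4.01. TNF minus untreated was 1.60 in WT and -0.25 in Tnfr2-/-. Muc5ac, Muc5b and Muc6 had at most 0.0395 CPM in any library. Of 9 other transmembrane mucins, 6 were in the gene table. Muc12, Muc17 and Muc21 had no entry under those symbols, so nothing is read on them. Cd164 (endolyn, a mucin-like sialomucin) was the 1 tested, at 70.5, 97.0, 97.8 and 122 CPM, and was called in neither comparison. Muc16, below the minimum of 20 CPM, stood at 11.8, 4.38, 4.24 and 9.63 CPM, and the 4 others measured had at most 1.66 CPM in any library.

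Of 28 genes of O-glycan synthesis, 14 could be called for genotype. In both pairs 1 was lower, against 1.41% of 5663 genes, and 0 were higher, against 1.13%. The 1 called was St6galnac6, a sialyltransferase, at 44.9, 60.6, 9.99 and 10.2 CPM, with differences of -2.06 and -2.46. It reached 20 CPM in WT alone, so its direction was fixed by the minimum and is not read against the background. The highest differences among the 14 were those of Gcnt1, which makes core 2 O-glycans, at 0.67 and 1.92. The median of the list was 0.06 and -0.37, against 0.10 and -0.12 over the 5663 genes. For TNF, 0 of 13 were called higher, against 0.92% of 5545 genes, and 0 lower, against 0.0721%. The medians were 0.43 and 0.15, against 0.04 and -0.14. Among the 13, Gcnt3, another core 2 enzyme, had the highest difference in WT (1.54) and Gcnt1 in Tnfr2-/- (1.02), and the lowest were those of the sialyltransferase St3gal4 in WT (-1.10) and Galnt12 in Tnfr2-/- (-0.91).

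Of 15 genes of the brush border and of proteins with PDZ domains, which bind the tails of some membrane mucins, 13 could be called. For genotype 1 was lower in both pairs, against 1.41% of 5663 genes, and 0 were higher, against 1.13%. It was Myo1a, the motor that ties microvillar actin to the membrane, with differences of -1.25 and -1.002. The latter was just past the limit, and TMM factors shifted that pair by 0.16, enough to take it back inside. Espn, an actin bundler, had the lowest difference without TNF, at -2.29, and stood at -0.22 with TNF. Without TNF it reached 20 CPM in WT alone, so that direction was fixed by the minimum. For TNF, 0 of 13 were called, against 0.92% of 5545 genes higher and 0.0721% lower. The medians of the list were -0.47 and -0.12 for genotype and -0.05 and 0.47 for TNF. Over all genes tested the medians were 0.10 and -0.12 for genotype and 0.04 and -0.14 for TNF. Muc3 lay below both genotype medians of the list, and Muc13 above that of the untreated pair alone.

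Of 13 genes for lectins that bind the glycocalyx, sheddases and growth factor receptors, 0 of 10 were called for genotype and 0 of 11 for TNF. Over all genes tested, 1.41% were called lower and 1.13% higher for genotype, and 0.0721% lower and 0.92% higher for TNF. Lgals3, a galectin, had the lowest genotype difference without TNF (-1.09) and Lgals4 with TNF (-0.91). The highest were those of Lgals9 without TNF (1.07) and Src with TNF (0.90). The medians of the list were 0.40 and 0.37 for genotype and 0.34 and 0.58 for TNF. Over all genes tested they were 0.10 and -0.12 for genotype and 0.04 and -0.14 for TNF. For TNF, the highest of those tested were Bace2 in WT (1.50) and Egfr, the EGF receptor, in Tnfr2-/- (1.37). The lowest were Lgals3 in WT (-0.48) and Lgals9 in Tnfr2-/- (-1.06). Bace2 and Egfr each reached 20 CPM in the TNF library of the pair alone, so these directions were fixed by the minimum. Of 13 transcription factors, 0 of 9 were called in either comparison, against the same shares over all genes tested. Cdx1, an intestinal homeobox factor, had the lowest genotype differences among the 9, at -0.53 and -1.57. The highest were those of Rela without TNF (0.93) and of Elf3, an epithelial Ets factor, with TNF (0.86). For TNF, the highest were Rela in WT (0.75) and Elf3 in Tnfr2-/- (1.43), and the lowest Klf4 in WT (-0.10) and Cdx1 in Tnfr2-/- (-0.70). The medians of this list were 0.17 and 0.23 for genotype and 0.33 and 0.31 for TNF.

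The genes most like each member were ranked by Pearson correlation of log2(CPM + 1) over 21 points, each a class of at least 15 cells in 1 library, among 5774 genes of at least 20 CPM on average. The points share libraries and classes, so the values are a description. For Muc3 they were Itih5 (0.94), Cyp2c55 (0.93), Gm3336 (0.92), Abcb1a (0.92) and Ctss (0.92), of which Cyp2c55 encodes a cytochrome P450 and Abcb1a a drug efflux transporter of the apical membrane. For Muc4 they were Muc2 (0.84), Mptx1 (0.83), Tnfaip8 (0.82), Klk1 (0.81) and Arf4 (0.81). For Muc13 they were Ceacam1 (0.91), a cell adhesion molecule of the apical surface, Plpp5 (0.87), Fuca1 (0.87), Trim31 (0.86) and Spint2 (0.86). For Muc1, at its low counts, the highest value was 0.69 (Lmo4). Among the members themselves the highest value was 0.37, between Muc4 and Muc13.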

How the data were processed

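Single-cell RNA of colonoids from WT and Tnfr2-/- mice, untreated or with TNF, was analysed in 4 libraries, 1 a group. The authors deposited whole UMI counts per gene and cell (32118086 nonzero values), made with Cell Ranger 5.0.0 on mm10 per the labels. Per the study's methods, they removed cells under 100 UMIs and doublets of epithelial and mesenchymal cells, and took classes from Leiden clustering in monocle3, which were used as given. The per-cell size factor, a score, and the plotting coordinates that the authors deposited were not used. Identifiers matched GENCODE M21 for 30317 genes and missed 43.

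For each class, and for the epithelium as a whole, UMIs of a gene were added up and scaled by the total UMIs of those cells (CPM). Differences are of log2(CPM + 1). Levels carry exact Poisson intervals, ratios and shares exact binomial ones, at 95%, for counting error only. Classes under 15 cells in a library were not compared. Thinning used the seed 7. A zero is read against 3 counts. Doublets scored with scrublet (expected rate 0.06) were 42 of 6155 cells (0.682%) and stayed in, other than in 1 alternative. The 35 cells without a class entered no comparison. Epithelial totals are given with the results and set the precision of each level. The call rule was tested on simulated data.

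The members and the gene lists were chosen with earlier results of these data known. Genes named from a list were its highest or lowest in a comparison, those called in both pairs, or secreted mucins, with extremes taken among the genes tested (Muc16 was added after its values were seen), and the 5 most like each member; for Muc1 the first is given. The 20 CPM minimum, reached in 1 library of the pair, fixed the direction of some extremes. These were Espn for genotype without TNF, Gcnt1 for genotype with TNF, Bace2 for TNF in WT, and Galnt12 and Egfr for TNF in Tnfr2-/-. Alternatives were TMM (edgeR 4.0.16, R 4.3.3) and median-of-ratios scaling, equal weight for cells or classes, a depth minimum, exclusion of low-UMI classes, doublets, collagen-positive cells or the top cell of each class, other pseudocounts and no expression minimum. Software was Python 3.11.15, numpy 2.4.6, scipy 1.17.1, pandas 2.3.3 and scanpy 1.11.5.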

Additional observations from a re-analysis of the deposited data

Results flagged for a closer look

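The TNF difference over the epithelium took opposite signs in the genotypes for Muc3, at -1.08 in WT and 0.36 in Tnfr2-/-, and the value in Tnfr2-/- minus that in WT was 1.44. With 1 library a group this difference was not tested, and within Progenitor.1 and Progenitor.2 the same value was -0.52 and 0.048. For Muc1 the TNF difference was 0.62 in WT and -0.35 in Tnfr2-/-, and Tnfr2-/- minus WT was -0.96, which was not tested and rests on 61 to 127 UMIs a library.

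The 35 cells without a class, which entered no comparison, held the epithelial mucins above the mesenchymal level. Muc3 stood there at 306 CPM (285 to 329), Muc13 at 218 CPM (200 to 238) and Muc4 at 13.1 CPM (8.93 to 18.4), while mesenchymal cells held at most 4.71, 10.1 and 0.287 CPM of them in any library. The 31 cells from WT untreated also held 4584 CPM of the 9 mesenchymal markers beside 8298 CPM of the 7 epithelial ones. Of these cells 31 were from WT untreated and 4 from Tnfr2-/- untreated, and the latter held 2 of the 751 Muc3 UMIs.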

How the results depend on the processing

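No paired analysis was possible because each group had 1 library, and for the same reason no library could be left out. Epithelial differences of the 4 members in the 4 comparisons (16 values, in the order of genotype without and with TNF, then TNF in WT and in Tnfr2-/-) kept their direction in 14 to 16 cases. Without cells under 5000 UMIs, without scrublet doublets, or without cells holding UMIs of more than 1 collagen gene (chosen after seeing the data), all 16 moved by less than their counting intervals. TMM factors shifted all genes by -0.10, 0.16, -0.10 and 0.16, and median-of-ratios factors by -0.12, 0.15, -0.10 and 0.17. With TMM, Muc3 stood at -3.47, -1.78, -1.18 and 0.52 and Muc13 at -0.47, -0.57, 0.56 and 0.45. With median-of-ratios, Muc3 stood at -3.49, -1.79, -1.18 and 0.52 and Muc13 at -0.49, -0.58, 0.56 and 0.46. With every cell weighted equally, Muc3 stood at -2.998, -1.36 and -1.31 in the first 3, Muc13 at -0.29, -0.62, 0.69 and 0.36, and Muc4 at -1.53 for genotype with TNF and 1.14 for TNF in WT. With equal weight for each of 3 classes, Muc3 stood at -2.67, -2.92, -0.63 and -0.88, Muc13 at -0.035, -0.44, 0.80 and 0.40, Muc4 at -1.28 for genotype with TNF and 1.06 for TNF in WT, and Muc1 at 1.35 for genotype without TNF. The sign of 2 values changed under this weighting, which were Muc3 for TNF in Tnfr2-/- and Muc1 for genotype with TNF (0.017 in place of -0.30). The weighting removes the absorptive class. Without Progenitor.3 and Secretory-Reg4-Ang4, Muc3 stood at -2.004 for genotype with TNF and -1.03 for TNF in WT.

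Genes at least 2-fold apart in both pairs numbered 64 higher and 80 lower for genotype, and 51 higher and 4 lower for TNF. With no expression minimum they were 204, 261, 131 and 9. A pseudocount of 10 CPM gave 32 higher for genotype and 0 lower for TNF, and equal class weights gave 28 higher and 23 lower for TNF. Members called lower for genotype were then 2 (Muc3 and Muc4) and called higher for TNF 1 (Muc4) with no expression minimum. Under the scalings, the pseudocount and the class weights, Muc3 was called lower for genotype and 0 members higher for TNF. At 2000 in place of 5000 UMIs a cell, the epithelial shares were 38.2%, 22.0%, 5.73% and 8.86% for Muc3 and 38.3%, 50.4%, 32.6% and 34.6% for Muc13, so that Muc13 was in more Tnfr2-/- cells with TNF, against fewer at 5000 UMIs. Differences were also taken without the cell of most UMIs in each library, a setting chosen after seeing the data. Those with 0 UMIs on a side, before or after that removal, were not counted. Among them were Muc3 for genotype without TNF in Progenitor.3 and Secretory-Reg4-Spdef-Lyz1, where 3 and 7 Tnfr2-/- UMIs became 0. Of the 65 other differences, within classes or over the epithelium, 59 stayed within their counting intervals and 6 moved. These were Muc3 in Progenitor.1 for genotype with TNF (-4.12), and for TNF in WT in Progenitor.2 (-0.32) and Secretory-Reg4-Spdef-Lyz1 (2.42), and Muc4 for TNF in WT in Progenitor.2 (2.89) and Progenitor.3 (1.89) and for genotype without TNF in Progenitor.2, where the sign changed (0.098 in place of -1.12). The cause of these moves was not tested. Depth limits Muc1 everywhere and Muc4 in small classes.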
